A study of Homo sapiens with 8 samples.

Results

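Gene expression after 24 h of thyroid hormone was compared with expression after 6 h in Nthy-ORI cells, an immortalised line of normal human thyroid follicular epithelium. The comparison used 4 of the 8 libraries of the series, chosen by title: 2 labelled T3 at 24 h and 2 labelled T3 at 6 h. T3 is triiodothyronine, the active thyroid hormone. All cultures were first deprived of hormone for 24 h in medium without phenol red and with charcoal-stripped serum, and then received 10 nM T3 or its vehicle, NaOH. The other 4 libraries, 2 with vehicle at 6 h and 2 labelled vehicle at 24 h, were used as the time course without hormone. RNA was extracted with Trizol and depleted of ribosomal RNA before library preparation. Nothing in the labels says that a group's 2 libraries are separate cultures, and p-values therefore measure only the spread between these libraries, which may be technical.

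T3 enters cells through membrane transporters and binds nuclear receptors encoded by THRA and THRB, which sit on DNA with retinoid X receptors. Without hormone the receptors recruit corepressors, and with hormone they recruit coactivators. Genes such as KLF9 and HR are raised directly and early in many tissues. In the thyroid itself the follicular state is held by the transcription factors PAX8, NKX2-1, FOXE1 and HHEX, which drive the genes of hormone synthesis such as TG and SLC5A5.

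Reads counted in genes ran from 2517983 to 8201606 per library, and 3 counts corresponded to 0.347 to 1.23 counts per 1000000 (CPM). The T3 libraries of the 2 times stood far apart. Across 14611 tested genes, Pearson's r of log2 CPM was 0.990 between the 2 libraries of T3 at 6 h, 0.977 between the 2 labelled T3 at 24 h, and 0.738 to 0.746 across the times. These values are across genes, which are not independent replicates. The vehicle libraries of the 2 times were separated to a like degree, with r from 0.749 to 0.796 across times. Mitochondrial ribosomal RNA took 0.747% and 0.278% of the counts in T3 at 6 h and 0.000429% and 0.00122% in the libraries labelled T3 at 24 h. The order was reversed with vehicle, 0.0137% and 0.00226% at 6 h and 0.103% and 3.07% in those labelled vehicle at 24 h. In the T3 libraries, reads without a unique alignment made up 63.6% and 61.2% of all records at 6 h. At 24 h they made up 47.6% and 49.97%. Reads counted in genes made up 16.5% and 17.1% at 6 h against 22.8% and 24.4% at 24 h. The part of these differences in the results was not tested. All 8 libraries carry the same cell line in their labels, and time cannot be told apart from anything else that differed between the 6 h and the 24 h libraries.

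KLF9, a transcription factor gene on chromosome 9 (70384597 to 70414624, minus strand, hg38), and HR, a corepressor gene on chromosome 8 (22114415 to 22133384, minus strand), served as a check of the treatment labels. KLF9 stood at 0.904 and 0.818 CPM with vehicle and at 13.4 and 14.1 CPM with T3 at 6 h. At 24 h it stood at 20.8 and 31.4 CPM where the label is vehicle and at 2.79 and 3.35 CPM in those labelled T3. HR stood at 68.4 and 58.5 CPM with vehicle and at 116 and 102 CPM with T3 at 6 h. At 24 h HR stood at 4.29 and 3.89 CPM where the label is vehicle and at 0.31 and 0.116 CPM in those labelled T3. For both genes the T3 libraries lay above the vehicle libraries at 6 h, and those labelled T3 lay below those labelled vehicle at 24 h, against the labels, with no overlap. The libraries are therefore called by their labels throughout, and every direction below rests on them.

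**Figure D1:**
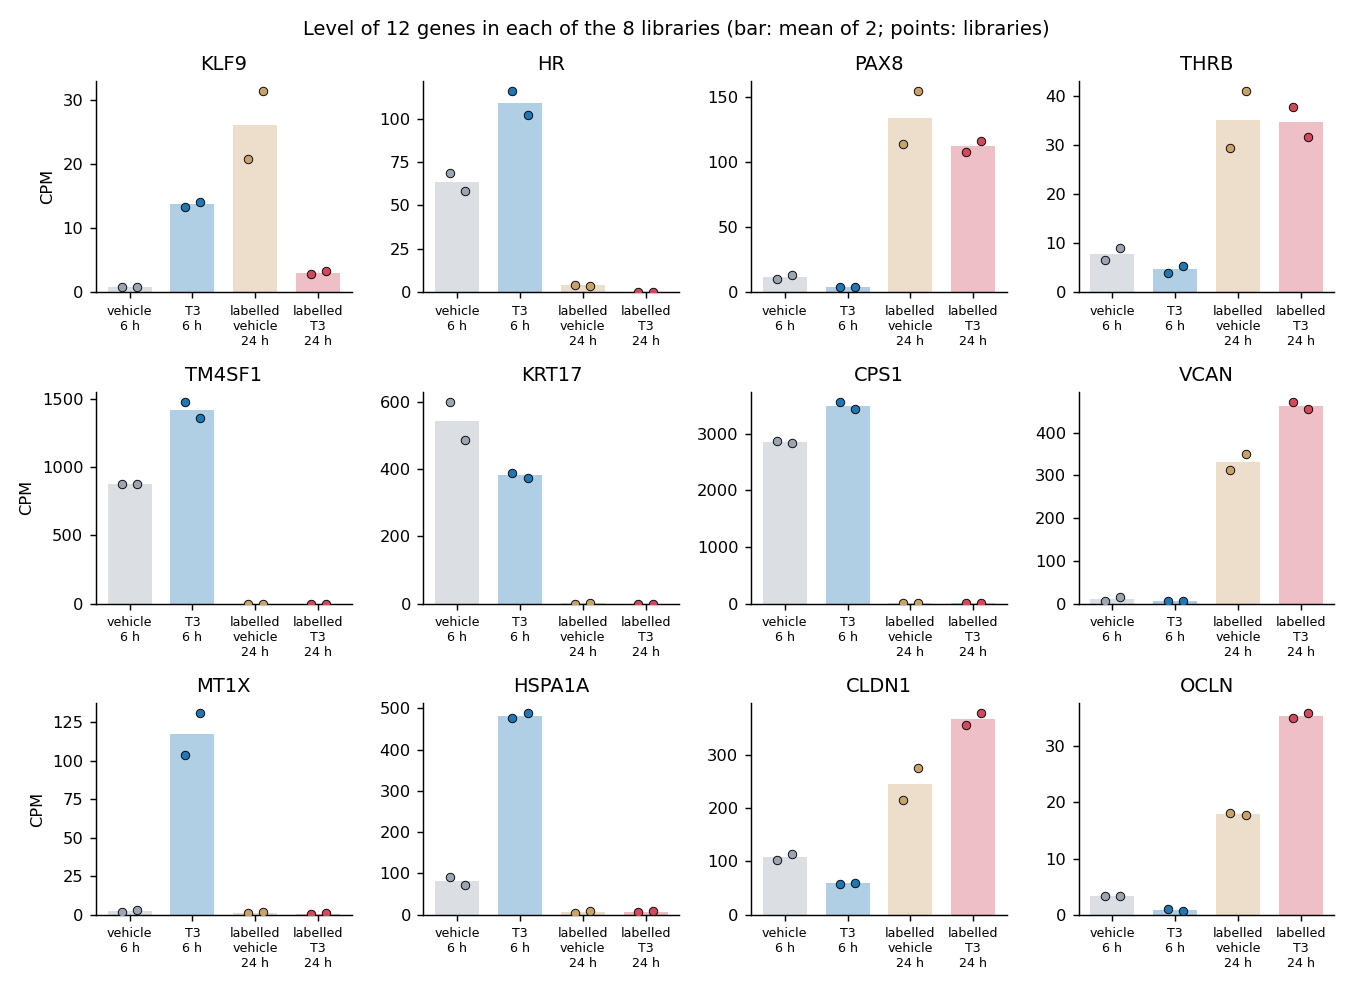
Levels of 12 genes (CPM, linear axes that start at 0) in the 8 libraries, with the mean of 2 libraries as a bar and each library as a point. KLF9 and HR are lower in the libraries labelled T3 at 24 h than in those labelled vehicle, while TM4SF1, KRT17 and CPS1 are high at 6 h alone and PAX8, THRB and VCAN are high at 24 h with either label.

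From 6 h to 24 h, 10281 of 14611 genes differed between the T3 libraries (70.4%), 5135 higher at 24 h (35.1%) and 5146 lower (35.2%). At least 2-fold differences were found for 7180 genes (49.1%), 3471 higher and 3709 lower, and 16-fold ones for 698 higher and 647 lower genes. These are calls of edgeR's quasi-likelihood test with Benjamini-Hochberg adjusted p under 0.05, and they form the background against which each group of genes below is to be read. The near-even split depends on the scaling. With total-count scaling 5929 genes were higher and 4386 lower, and the median log2 fold change was 0.239 in place of 0.019. In bulk RNA, fewer cells of a type and less RNA per cell cannot be told apart. The plot of levels at both times shows whole sets of genes at the axes, with many counts at one time and none at the other.

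**Figure D2:**
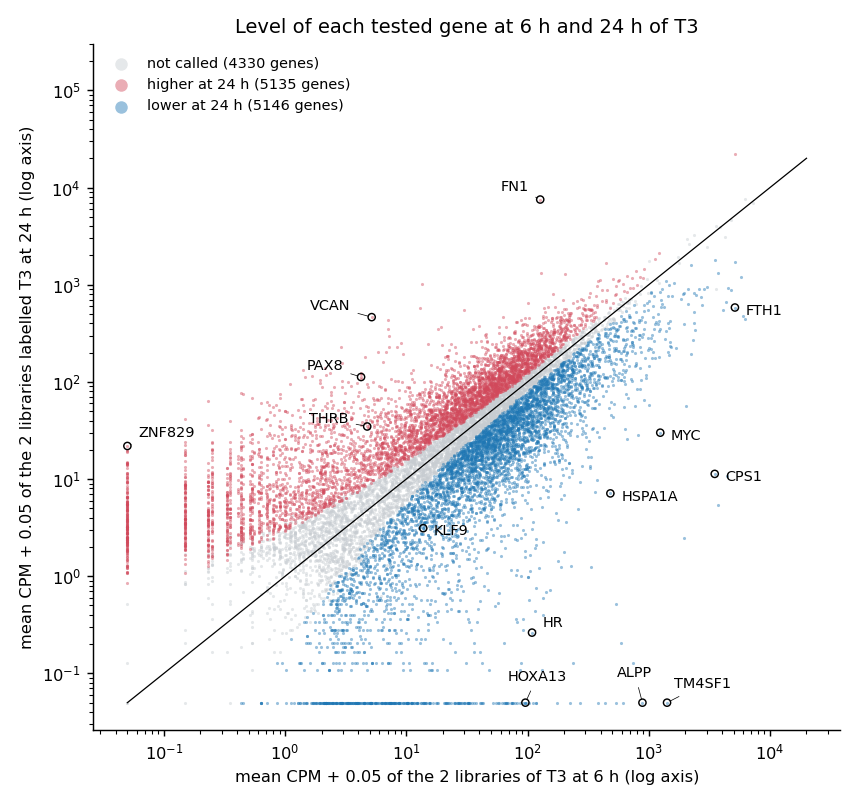
Mean level of each of the 14611 tested genes in the 2 libraries of T3 at 6 h and the 2 labelled T3 at 24 h (CPM plus 0.05, log axes), with the line of equal levels. Red and blue points are the 5135 genes called higher and the 5146 called lower at 24 h, and TM4SF1, ALPP and HOXA13 lie on the lower edge because they had no counts at 24 h.

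The 10 largest falls, ranked by fitted log2 fold change, were of genes abundant at 6 h. TM4SF1 (chromosome 3, 149369022 to 149377865), which encodes a membrane protein with tetraspanin-like topology, had 1473 and 1356 CPM at 6 h and no counts in either library labelled T3 at 24 h, at least 7120-fold lower. ALPP (chromosome 2, 232378534 to 232382889), the placental alkaline phosphatase, had 870.4 and 903 CPM at 6 h and no counts at 24 h, at least 4461-fold lower. ALPI, the intestinal alkaline phosphatase, went from 583 and 632 CPM to no counts, at least 3056-fold lower. ALPP and ALPI are related genes, and whether reads of one were counted in the other was not tested. KRT17, a basal-type keratin of chromosome 17, went from 389 and 374 CPM to no counts, at least 1919-fold lower. None of the 4 genes had a count in either library labelled T3 at 24 h. The vehicle libraries gave the same order: TM4SF1 had 875 and 873 CPM with vehicle at 6 h and no counts in the libraries labelled vehicle at 24 h, and ALPP had 1147 and 944 CPM and then 0.226 and 1.05 CPM.

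Fold bounds in this text are taken against 3 counts over both libraries of the lower group. The guanine deaminase gene GDA was at least 2725-fold lower, the ubiquitin ligase gene TRIM29 at least 1117-fold lower and the splicing regulator gene MBNL3 at least 877-fold lower at 24 h. PRSS56, a serine protease gene with a single count at 24 h, was 11370-fold lower (95% counting interval 2040 to 449100). PDE3A, a cyclic nucleotide phosphodiesterase gene, was 4507-fold lower (1247 to 37230). CPS1 (chromosome 2, 210477682 to 210679107), the mitochondrial carbamoyl phosphate synthetase of the urea cycle, stood at 3558 and 3442 CPM at 6 h and at 12.6 and 9.95 CPM at 24 h. Its log2 fold change was -8.29 (SE 0.20, adjusted p = 1.15e-14). MYC, the growth-promoting transcription factor, went from 1220 and 1267 CPM to 30.5 and 29.4 CPM (log2 fold change -5.38, SE 0.14, adjusted p = 2.69e-14). With the libraries labelled vehicle, the log2 fold changes with time were -8.01 for CPS1 and -4.99 for MYC.

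Zinc finger genes made up 6 of the 10 largest rises ranked by fitted log2 fold change. All 10 genes had no counts at 6 h, so the ranking depends on the prior count of the fit, and genes with 1 to 3 counts at 6 h could show larger measured ratios than the bounds given here. CDH13, a cadherin gene chosen after its values were seen, had 1 count over both libraries at 6 h (mean 0.181 CPM) and a mean of 62.9 CPM at 24 h. ZNF829 had no counts at 6 h of T3 and 18.6 and 25.1 CPM in the libraries labelled T3 at 24 h, at least 56.3-fold higher. ZNF525 reached 18.1 and 21.4 CPM (at least 51-fold), and ZNF568, ZNF471, ZNF682 and ZFP28 were at least 49.2-, 37.7-, 37.1- and 36.6-fold higher. All 6 lie on chromosome 19 and carry symbols of the family of zinc finger repressors encoded there. The others among the 10 largest rises were RBM24, an RNA-binding protein gene (at least 49.8-fold), HDX (at least 38.3-fold), the vesicle GTPase gene RAB39B (at least 37.7-fold) and NTNG1, which encodes netrin G1 (at least 37.2-fold). Of the 10 genes, ZNF525 and ZNF471 had no counts with vehicle at 6 h either. RBM24 had 0.904 and 0.818 CPM and NTNG1 0.904 and 2.05 CPM there.

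The zinc finger symbols were also higher as a class. Of 465 tested genes named ZNF or ZFP with a number, 240 were higher (51.6%) and 92 lower (19.8%), with a median log2 fold change of 0.66 against 0.02 over all genes. The 211 zinc finger genes on chromosome 19 had a median of 0.70 (49.8% higher) and the 248 on other chromosomes one of 0.58 (52.4% higher). On chromosome 19 the zinc finger genes went against their neighbours: the 670 other tested genes there had a median of -1.40, with 70.0% of them lower. The medians with vehicle were alike, 0.64 for all zinc finger symbols, 0.69 on chromosome 19 and 0.58 on other chromosomes. For the other chromosome 19 genes the vehicle median was -1.09. Chromosomes 16 and 17 also leaned lower, with medians of -0.79 and -0.44, and chromosomes 20, 2 and 14 higher, with medians of 0.54, 0.50 and 0.48. GC content moved with these shifts. Annotated genes in 5 bins of rising GC content had median log2 fold changes of 0.73, 0.42, 0.06, -0.51 and -1.20, and with vehicle 0.72, 0.45, 0.06, -0.40 and -0.96. Whether GC content took part in any single result was not tested. Counts after a correction for GC content and length are given beside some of the lists. Some lists without corrected counts beside them also shifted. Integrated stress response genes went from 15 higher and 9 lower to 18 and 7, with the median going from 0.403 to 0.853. The median went from -2.21 to -1.584 for NRF2 targets and from -1.618 to -0.996 for glycolysis and hypoxia genes. It went from 0.958 to 0.343 for integrins and laminins, and from 0.087 to 0.629 for insulin and IGF genes. The other corrected counts are not printed.

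Genes detected at one time alone were set apart by a fixed rule, at least 10 CPM in both libraries of one time and at most 3 counts over both libraries of the other. At 6 h alone 128 genes were detected, 95 of them without a count at 24 h. At 24 h alone 84 were detected, 17 of them without a count at 6 h, and 22 of the 84 were zinc finger symbols. The vehicle libraries shared most of this pattern, which the T3 libraries had chosen. Of the 128, 110 reached 10 CPM in both vehicle libraries at 6 h, and 124 had a mean under 1 CPM over the 2 labelled vehicle at 24 h. Of the 84, 63 reached 10 CPM in both of those labelled vehicle at 24 h, but 45 had a mean under 1 CPM over the 2 vehicle libraries at 6 h.

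HOX genes, which encode transcription factors that keep a cell's position along the body axis, were among the clearest of these. In the HOXA cluster of chromosome 7, all 5 tested genes were lower at 24 h. Of its 11 genes, 3 had no counts with T3 at 6 h and 10 had none in the libraries labelled T3 at 24 h. HOXA13 went from 102 and 89.7 CPM to none (at least 482-fold lower), HOXA10 from 79.99 and 76.4 CPM to none (at least 394-fold) and HOXA11 from 65.9 and 57.1 CPM to none. In the HOXD cluster of chromosome 2 all 3 tested genes were lower. Of its 9 genes, 5 had no counts at 6 h already and 8 had none at 24 h. HOXD10 went from 30.4 and 36.4 CPM to none (at least 168-fold lower) and HOXD9 from 6.88 and 8.85 CPM to none (at least 39.6-fold).

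The other 2 HOX clusters were kept in part. HOXB6 fell from 6.88 and 11.9 CPM to 0.155 and 0 (152-fold, counting interval 26.5 to 6090), and HOXB7 and HOXB13 fell by 2.40 and 3.56 on the log2 scale. HOXB3 stood at 7.96 and 8.05 CPM at 6 h and at 8.06 and 8.44 CPM at 24 h (log2 fold change 0.04, adjusted p = 0.916). HOXC10 fell by 5.01 on the log2 scale, from 27.1 and 25.4 CPM to 0.465 and 1.04 CPM. HOXC8 stood at 2.53 and 3.82 CPM at 6 h and at 4.03 and 2.66 CPM at 24 h. Of 7 tested genes each, 4 were lower in HOXB and 4 in HOXC, where HOXC4 was higher with an adjusted p of 0.0234 that did not hold in 5 alternative settings. Called genes made up 57.1% in HOXB and 71.4% in HOXC, beside 70.4% over all genes. The count of lower HOXC genes was 2 with the GC correction, with total-count scaling, in DESeq2, with the 4 T3 libraries alone and without either T3 library at 6 h.

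**Figure D3:**
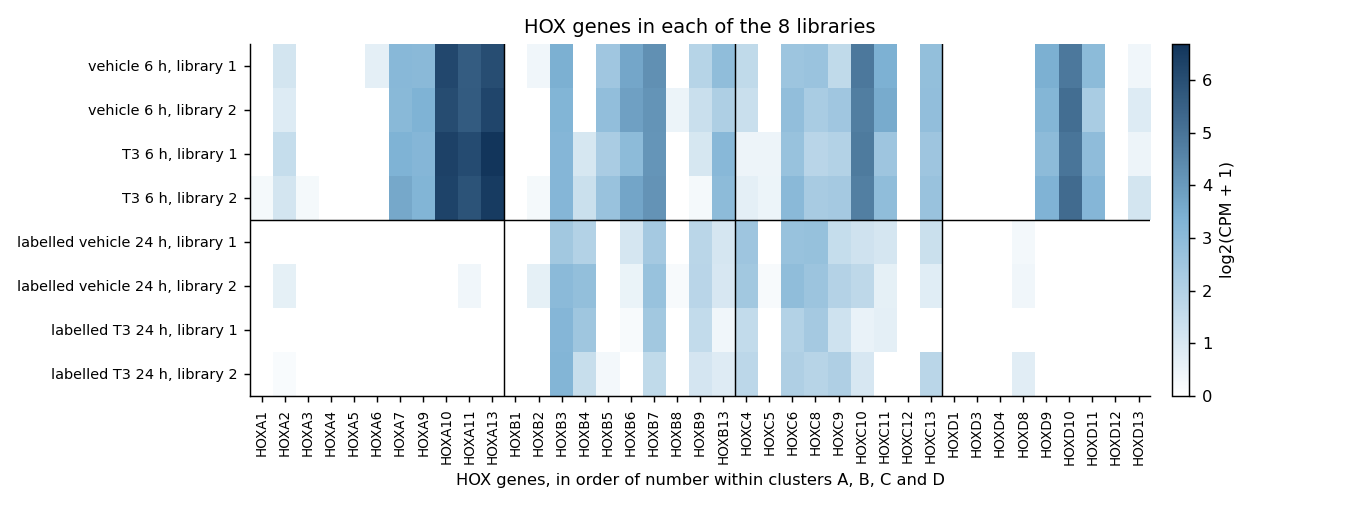
Levels of the HOX genes, log2(CPM + 1), with 1 row per library and the clusters A to D parted by vertical lines. The 4 libraries at 6 h hold HOXA7 to HOXA13 and HOXD9 to HOXD11, and in the 4 libraries at 24 h these genes are at or near 0 with either label.

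Genes of the thyroid follicular state were partly present. PAX8 (chromosome 2, 113215997 to 113278950) stood at 4.34 and 4.02 CPM at 6 h and at 108 and 117 CPM in the libraries labelled T3 at 24 h. Its log2 fold change was 4.75 (SE 0.24, adjusted p = 1.92e-11). FHL1, a LIM-domain gene used as a follicular marker, rose by 3.63 on the log2 scale, and the transcription factor genes GLIS3 and FOXE1 and the matrix gene MATN2 rose by 2.37, 1.07 and 1.92. HHEX stood at 15.1 CPM ± 0.318 (SD, n = 2) at 6 h and at 17.75 CPM ± 3.18 (SD, n = 2) at 24 h (edgeR adjusted p = 0.411). In all, 5 of 6 tested members of 20 were higher at 24 h. The remaining 14 were too low to test, among them TG, TSHR and NKX2-1, all under 1 CPM in every T3 library. The products that define a hormone-producing follicular cell were thus at or near 0 at both times, and the leading follicular factor, PAX8, was low at 6 h. With vehicle PAX8 was at 9.95 and 13.5 CPM at 6 h and at 114 and 155 CPM at 24 h under the vehicle label. FOXE1's call was lost without T3 at 6 h library 2 (adjusted p = 0.197).

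Markers of other cell types were checked in the same libraries. Endothelial and immune markers were too low to test, with summed levels of 0.362 to 1.735 CPM for the endothelial and 0 to 2.90 CPM for the immune list in the T3 libraries. Of 12 hepatocyte markers, CPS1 carried nearly all of a sum of 3560 and 3445 CPM at 6 h, against 22.95 and 17.9 CPM at 24 h, and 7 and 8 of the 12 had no counts. Trophoblast markers summed to 905 and 944 CPM at 6 h, of which ALPP made up 870.4 and 903, and to 54.6 and 56.3 CPM at 24 h. Keratinocyte markers summed to 106 and 116 CPM at 6 h, nearly all from SFN, an inhibitor of cell cycle progression, and to 10.1 and 9.37 CPM at 24 h, and at each time 7 of the 10 had no counts, KRT5 and KRT14 among them. Neural crest and melanocyte markers summed to 207 and 205 CPM at 6 h, with MITF at 197 CPM in both libraries, and to 21.1 and 35 CPM at 24 h. Fibroblast markers summed to 117 and 123 CPM at 6 h and 726.5 and 629.8 CPM at 24 h, nearly all from COL1A1. Apart from COL1A1 and PDGFRB the fibroblast genes stood at or under 2.21 CPM in the T3 libraries, and 4 of the 10 had no counts at 24 h. Renal tubule markers summed to 1.09 and 0.805 CPM at 6 h and 9.3 and 13.9 CPM at 24 h, and neuron markers to 21 and 23.3 CPM and 17.2 and 13.5 CPM. Intestinal and thyroid C cell markers summed to at most 1.09 and 2.63 CPM in any T3 library. The part of any other cell type in these results was not tested.

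Genes of the machinery of hormone response were called at about the share over all genes, 70.0% beside 70.4%. THRB, the receptor subtype typical of liver and pituitary, went from 3.98 and 5.43 CPM to 37.8 and 31.6 CPM (log2 fold change 2.83, SE 0.28, adjusted p = 1.13e-07), and THRA went from 48.1 and 46.5 CPM to 18.3 and 17.7 CPM (-1.39, SE 0.19, adjusted p = 4.59e-06). After the GC correction the THRA change was -0.56. The amino acid and hormone transporter gene SLC7A5 went from 2201 and 2293 CPM to 202 and 182.5 CPM, and its close relative SLC7A8 from 6.15 and 6.24 CPM to no counts. Of 20 tested receptors, transporters and coregulators, 5 were higher and 9 lower (3 and 10 after the GC correction), with the coactivator genes NCOA1 and NCOA3 higher by 1.74 and 0.87 on the log2 scale. The deiodinase genes DIO1 and DIO2 reached no more than 0.201 and 1.81 CPM in any T3 library.

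Known targets of the thyroid hormone receptors were mostly lower at 24 h. Of 17 tested, 11 were lower and 4 higher, with a median log2 fold change of -0.89. The median with vehicle was -0.79. A direct test of the difference from vehicle called 2 of the 17, more downward under T3. With the GC correction or with total-count scaling 9 were lower. KLF9 fell by 2.15 on the log2 scale (SE 0.33, adjusted p = 1.7e-05), and HR was 537-fold lower (counting interval 183 to 2611). PPARGC1A, a coactivator of mitochondrial genes, went from 16.7 and 14.1 CPM to 0 and 0.116 CPM, and CPT1A, the gatekeeper of fatty acid import into mitochondria, fell by 2.22 on the log2 scale. HIF1A, the hypoxia-inducible factor, was higher by 1.74, and TXNIP, a thioredoxin inhibitor, by 1.00. With the libraries labelled vehicle at 24 h in place of those labelled T3, KLF9 was higher by 0.93 instead (adjusted p = 0.0077), an alternative chosen after the data were seen.

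Some stress genes changed with time differently under T3 than under vehicle. Metallothioneins bind zinc and copper and are raised by metal load through the factor MTF1, and heat shock chaperones are raised through heat shock factors when proteins misfold. Core motifs for these factors lie in some of their promoters, and 3 promoters with a match are shown here for genes whose change differed between T3 and vehicle. The sequences are the 150 bases before the gene start in RefSeq (GRCh38.p14, plus strand), with capitals for matches to the metal response element core (TGCACNC or TGCGCNC) in MT1X and MT2A and to a heat shock element core (GAANNTTC) in HSPA1A, searched on both strands.
MT1X, chr16:56682320-56682469: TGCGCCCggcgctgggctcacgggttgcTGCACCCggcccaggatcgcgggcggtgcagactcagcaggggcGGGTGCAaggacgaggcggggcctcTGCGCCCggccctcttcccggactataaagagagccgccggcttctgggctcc
MT2A, chr16:56608434-56608583: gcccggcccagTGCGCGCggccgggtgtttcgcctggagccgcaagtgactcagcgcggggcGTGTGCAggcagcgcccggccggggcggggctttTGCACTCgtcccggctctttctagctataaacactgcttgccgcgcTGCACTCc
HSPA1A, chr6:31815393-31815542: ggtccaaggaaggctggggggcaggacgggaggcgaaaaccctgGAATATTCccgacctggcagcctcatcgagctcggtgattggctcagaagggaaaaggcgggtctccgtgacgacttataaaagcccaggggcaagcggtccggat

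The MT1X and MT2A windows each held 4 metal response element cores. Of 27305 promoter windows of this length, 17.2% held at least 1 such core and 0.678% at least 3. The heat shock core was in 3.25% of windows, in the 1 place marked in HSPA1A, and in 6 of 21 windows of the chaperone list. HSPB8 and DNAJB6, which moved in opposite directions with time, each held 1 match, and HSPH1 held none. A metal response core was in 8 of 16 windows of the metallothionein and zinc list. A match is a description of the letters, not of a bound site.

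MT1X, MT2A and MT1F fell from 6 h to 24 h of T3. MT1X stood at 103.5 and 131 CPM at 6 h and at 0.155 and 1.27 CPM in the libraries labelled T3 at 24 h (log2 fold change -7.18, SE 0.36, adjusted p = 2.06e-11). MT2A went from 322.5 and 455 CPM to 24.5 and 29.2 CPM (-3.86, SE 0.25), and MT1F from 23.2 and 28 CPM to 2.33 and 3.47 CPM (-3.12). With vehicle MT1X stood at 1.81 and 2.86 CPM at 6 h and at 0.904 and 1.495 CPM at 24 h, so that the T3 libraries at 6 h stood above all the others. The difference from vehicle was -6.34 for MT1X, -3.53 for MT2A and -4.85 for MT1F on the log2 scale, and that of MT2A missed the threshold after the GC correction (adjusted p = 0.0509). MT1E moved the other way, from 5.79 and 6.44 CPM to 21.1 and 22.3 CPM. Of 18 tested genes of the list 8 were lower and 7 higher (9 and 4 after the GC correction, with the median going from 0.06 to -0.29), the latter including the zinc exporter gene SLC30A4 (log2 fold change 3.73) and MTF1 itself (1.01). Metallothionein genes are near-identical in places, so single values are uncertain.

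Heat shock chaperones fell as a list. Of 24 tested, 20 were lower at 24 h and 1 was higher (2 with total-count scaling or with the 4 T3 libraries alone), with a median log2 fold change of -1.43. HSPA1A, the inducible major chaperone, went from 476 and 488 CPM to 6.05 and 8.10 CPM (log2 fold change -6.07, SE 0.23, adjusted p = 4.76e-12), although it shares sequence with HSPA1B (-3.09). The small chaperone gene HSPB8 went from 93.4 and 81.5 CPM to 2.94 and 1.85 CPM (-5.21), and the co-chaperone gene HSPH1 from 951 and 1024 CPM to 300 and 266 CPM (-1.80). DNAJB6 was the member that rose, from 100.6 and 86.9 CPM to 269.9 and 249.5 CPM (1.48). For 12 of the 24 the change under T3 lay below that with vehicle, a difference tested directly. HSPA1A with vehicle went from 91 and 70.8 CPM to 3.84 and 9.12 CPM. The summed level of the list was 16840 and 15990 CPM with T3 and 9208 and 9221 CPM with vehicle at 6 h. At 24 h it was 6041 and 6464 CPM under the T3 label and 5862 and 6129 CPM under the vehicle label. That count of 12 was 6 without T3 at 6 h library 1 or without library 2, and 15 without library 1 labelled vehicle at 24 h.

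Genes of the integrated stress response are raised by the factor ATF4 when amino acids run short or translation is checked. Their differences from vehicle, where called, lay opposite to those of the heat shock chaperones. The summed level of the list went from 6771 and 6806 CPM to 4527 and 4831 CPM with T3. With vehicle it went from 10040 and 9046 CPM to 4971 and 4699 CPM, so the groups stood further apart at 6 h than at 24 h. Of 29 tested, 15 were higher and 9 lower at 24 h, and 12 had a change under T3 that lay above that with vehicle. TRIB3, a pseudokinase gene, went from 104 and 98.2 CPM at 6 h to 131 and 136 CPM at 24 h with T3, and from 310 and 254 CPM to 163 and 116 CPM with vehicle. SESN2, a regulator of the nutrient-sensing kinase mTORC1, went from 17.7 and 14.3 CPM to 53.3 and 45.9 CPM (log2 fold change 1.65), and CHAC1, a glutathione-degrading enzyme gene, rose by 1.80. GDF15, a stress-responsive cytokine gene, stood at 17 and 18.5 CPM at 6 h and 16.4 and 15.6 CPM at 24 h, while with vehicle it stood at 55.5 and 55.6 CPM and then at 8.14 and 9.57 CPM. SLC7A5 and the cystathionine gamma-lyase gene CTH were the members with the largest falls (-3.55 and -2.94). Leaving out libraries took the count of 12 to 7 (vehicle at 6 h, library 1), 4 (vehicle at 6 h, library 2), 5 (T3 at 6 h, library 1), 3 (T3 at 6 h, library 2) and 8 (labelled vehicle at 24 h, library 2).

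Metabolic programs fell at 24 h. Of 25 tested genes of cholesterol synthesis and uptake 21 were lower, with a median log2 fold change of -1.58. The mevalonate pathway gene PMVK went from 47.8 and 54.1 CPM to 4.34 and 3.82 CPM, a fall by 3.65 on the log2 scale. Of 24 fatty acid genes 14 were lower (median -0.88), led by FASN, the fatty acid synthase, from 756 and 861 CPM to 34 and 22.3 CPM (-4.86), and by its regulator SREBF1 (-4.06). Of 29 genes of glycolysis and hypoxia 20 were lower (median -1.62), with ALDOC from 27.1 and 26.6 CPM to no counts (at least 135-fold lower) and GAPDH from 5896 and 5551 CPM to 1156 and 1243 CPM, while the mitophagy receptor gene BNIP3L and the hexokinase gene HK1 rose by 2.41 and 2.02. Of 19 targets of the oxidant sensor NRF2 17 were lower (median -2.21), among them TKT of the pentose phosphate pathway, from 2085 and 1985 CPM to 49.3 and 64.65 CPM, and the ferritin heavy chain gene FTH1, from 5260 and 5012 CPM to 564 and 600.3 CPM. With vehicle the medians of the 4 lists were -1.28, -0.71, -1.31 and -2.24, and the plot of called genes per list sets all lists beside the share over all genes.

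**Figure D4:**
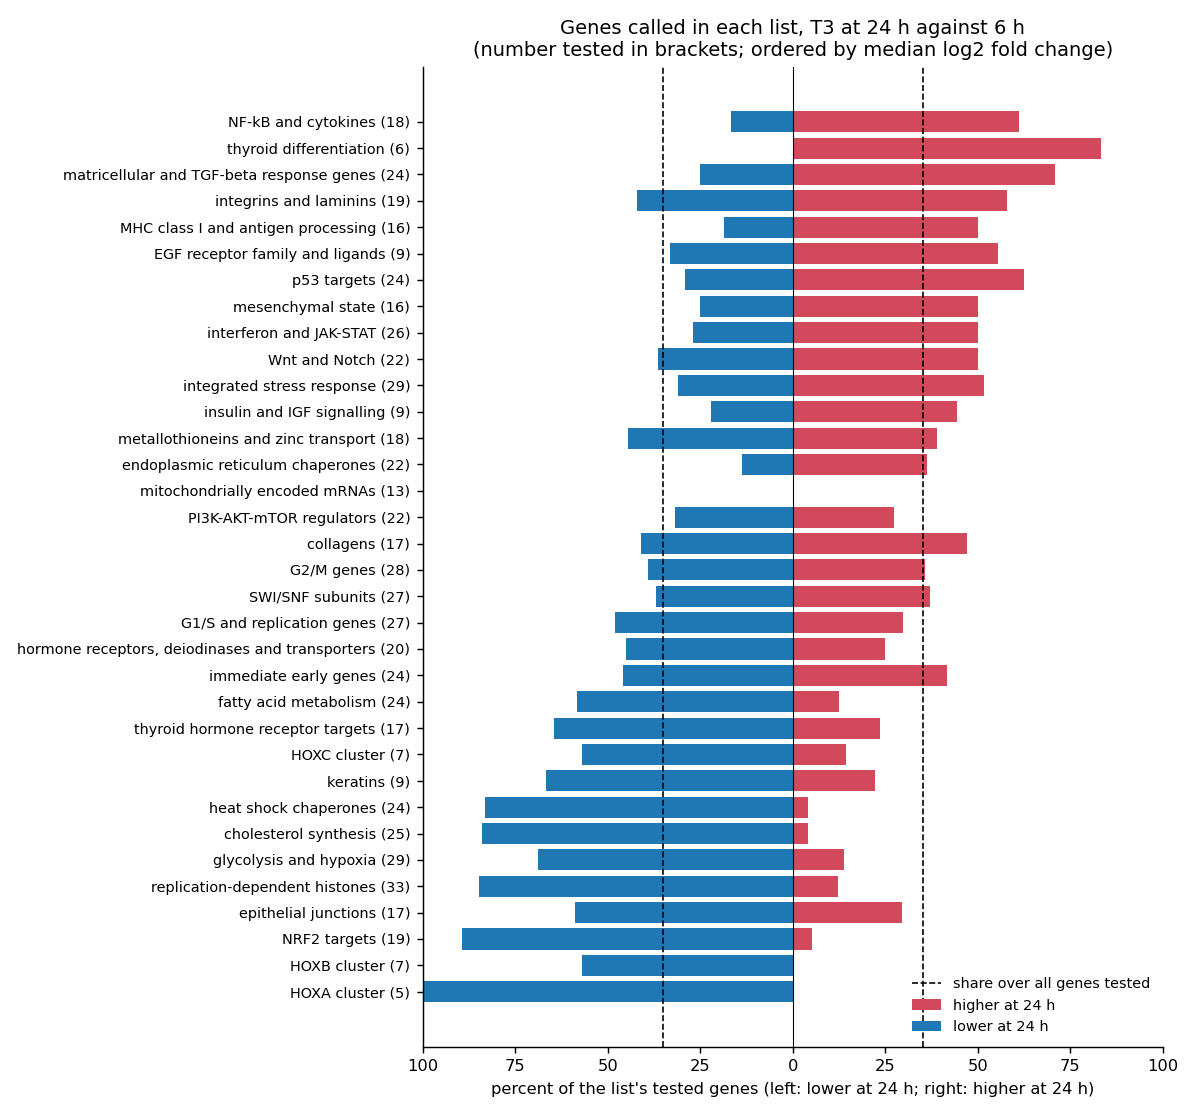
Percent of the tested genes of each list called lower (blue, left) or higher (red, right) at 24 h of T3, with the number tested in brackets and lists ordered by median log2 fold change. Dashed lines mark the shares over all genes, 35.2% lower and 35.1% higher. HOXA, NRF2, histone, cholesterol and heat shock genes extend far to the left, and thyroid, matricellular, p53 and NF-kB genes to the right.

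Most tested members of the matricellular and cytokine lists were higher at 24 h. Of 24 tested matricellular and TGF-beta response genes, 17 were higher and 6 lower, with a median log2 fold change of 1.85. VCAN, the proteoglycan versican (chromosome 5, 83471465 to 83582303), went from 5.43 and 4.83 CPM to 472 and 456 CPM (6.51, SE 0.23, adjusted p = 5.22e-13). INHBA, the activin A subunit gene, went from 3.62 and 2.01 CPM to 235 and 227 CPM (6.46), and the fibronectin gene FN1 from 133 and 122 CPM to 7486 and 7561 CPM (5.89). BMP4 and DCN, encoding a morphogen and a small proteoglycan, went from 2.53 and 2.21 CPM and from 1.81 and 2.01 CPM to no counts. Of 18 NF-kB targets and cytokines 11 were higher and 3 lower (median 2.62): CXCL8 went from 7.601 and 6.44 CPM to 334 and 363 CPM, IL6 from 5.43 and 4.02 CPM to 91.2 and 97.4 CPM, and ICAM1, a leukocyte adhesion receptor gene, rose by 5.79. TNFAIP3 and BIRC3, which damp or redirect TNF signalling, fell by 1.89 and 0.77. After the GC correction 16 of the 18 were higher.

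Collagens split by chain. COL5A2 and COL16A1 rose by 3.75 and 3.25 on the log2 scale, while the basement membrane chain COL4A5 went from 64.8 and 67.6 CPM to no counts (at least 333-fold lower) and COL4A3 from 8.32 and 6.24 CPM to none. Of 17 tested, 8 were higher and 7 lower (median -0.11), and after the GC correction 11 were higher and 6 lower (median 0.85). Of 19 integrin and laminin genes 11 were higher and 8 lower, among the latter the laminin chain gene LAMA5, from 305 and 351 CPM to 11.5 and 14.2 CPM (-4.66).

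Of 17 tested genes of cell-to-cell junctions 10 were lower and 5 higher, with a median of -1.80, and after the GC correction 11 were lower and 3 higher. CLDN7, a tight junction claudin, went from 19.9 and 22.5 CPM to no counts (at least 107-fold lower), the epithelial splicing factor gene ESRP2 fell by 5.38 and the plakoglobin gene JUP by 5.20. CLDN1 and OCLN, both of tight junctions, went the other way: OCLN went from 1.09 and 0.604 CPM to 35 and 35.9 CPM (5.46) and CLDN1 from 57.9 and 59.1 CPM to 356 and 378 CPM (2.65). CDH1, encoding E-cadherin, was at or under 1.01 CPM in all T3 libraries and was not tested. Of 9 keratins 6 were lower, including KRT7, KRT8 and KRT18 of simple epithelia (-1.74, -0.89 and -1.32), and the hair keratin gene KRT81 rose by 3.75. After the GC correction 4 keratins were lower and 3 higher, and their median went from -1.32 to -0.21. Among 16 mesenchymal genes, 8 were higher and 4 lower, 75.0% called beside 70.4% over all genes. MMP2, a matrix-degrading protease gene, rose by 4.43, and S100A4, a calcium-binding protein gene, went from 248 and 224 CPM to 0.155 and 0 CPM.

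Genes of growth control and genome upkeep differed by member. Of 24 tested p53 targets, 15 were higher and 7 lower (median 0.71), and 18 and 4 after the GC correction. MDM2, the inhibitor of p53, went from 168 and 159 CPM to 789 and 822 CPM (2.30), GADD45A rose by 2.99 and TP53INP1 by 3.59, while PHLDA3 and BBC3 fell by 2.93 and 1.89. BBC3's change was 0.57 after the GC correction (adjusted p = 0.319). Of 33 tested replication-dependent histone genes 28 were lower and 4 higher (median -1.71). After the GC correction 15 were lower and 9 higher, and the median was -0.36. HIST1H3G went from 162 and 188 CPM to 16.9 and 20.4 CPM, and HIST1H1D rose from 4.71 and 3.62 CPM to 118 and 121 CPM. G1/S genes were called 13 lower and 8 higher of 27, and G2/M genes 11 lower and 10 higher of 28, so that 77.8% and 75.0% were called beside 70.4% over all genes. Of the G2/M genes 6 were lower without T3 at 6 h library 1 or without library 1 labelled T3 at 24 h, and 5 with total-count scaling. RRM1 and RRM2, the subunits of ribonucleotide reductase, moved apart (-2.32 and 1.61), and so did the kinase genes AURKB (-1.90) and the motor gene CENPE (2.04).

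Signalling lists held members of both directions. The shares called were 87.5% for immediate early, 59.1% for PI3K-AKT-mTOR and 88.9% for EGF receptor family genes. They were 86.4% for Wnt and Notch, 66.7% for insulin and IGF and 74.1% for SWI/SNF genes, beside 70.4% over all genes. Of 24 immediate early genes 11 were lower and 10 higher (median -0.73, and 0.01 after the GC correction), with SPRY4 from 0.724 and 0.201 CPM to 9.15 and 9.95 CPM and FOS from 2.53 and 3.02 CPM to no counts. Of 22 PI3K-AKT-mTOR regulators 7 were lower and 6 higher, and the transcription factor gene FOXO1 fell by 2.61 on the log2 scale. ERBB4, of the EGF receptor family, went from 7.24 and 8.85 CPM to no counts (at least 40.5-fold lower), and 5 of the 9 tested genes of that family and its ligands were higher (3 after the GC correction or with DESeq2). Without T3 at 6 h library 2, 2 of them were higher and 3 lower. Of 22 Wnt and Notch genes 11 were higher and 8 lower, and of 9 insulin and IGF genes 4 were higher and 2 lower. Of 27 SWI/SNF subunits 10 were higher and 10 lower, SMARCA4 going from 303 and 315 CPM to 129 and 131 CPM (-1.25; -0.32 after the GC correction).

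Interferon genes were split, with 13 of 26 higher and 7 lower. MX1, an antiviral GTPase gene, rose by 3.87 and GBP1 by 4.34, while IFITM2 and BST2, membrane restriction factor genes, fell by 7.85 and 5.93. Of 16 genes of MHC class I and antigen processing 8 were higher and 3 lower, with the immunoproteasome gene PSMB8 from 1.09 and 1.61 CPM to 24.3 and 29.7 CPM (4.24) and HLA-B from 76.4 and 79.3 CPM to 310.2 and 341 CPM (2.06). With the GC correction 12 were higher. Of 22 chaperones of the endoplasmic reticulum 8 were higher and 3 lower, but 4 higher and 6 lower after the GC correction. SEL1L, of the degradation complex of that compartment, rose by 1.83, and the calcium-binding chaperone gene CALR fell by 1.45.

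The 13 mitochondrial mRNAs stood apart by not moving past the threshold. None was called by edgeR, 0 had an unadjusted p under 0.05 and DESeq2 called 0. MT-CO1 stood at 7071 and 7419 CPM at 6 h and at 7025 and 6771 CPM in the libraries labelled T3 at 24 h. The test pools the spread over all 8 libraries, and in those labelled vehicle at 24 h MT-ND4 stood at 4676 and 17000 CPM. With the 4 T3 libraries alone 5 of the 13 were higher and 2 lower, and without either library labelled vehicle at 24 h 1 was higher.

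Change with time under T3 was then set against change with time under vehicle in the libraries as labelled, which asks how far the time difference was shared without hormone. With vehicle 9424 genes were called. Of these, 8442 were called in the same direction under T3, which is 82.1% of the T3 calls and 89.6% of the vehicle calls, and 24 in the opposite one. The 2 comparisons share no library. A direct test of the difference between the changes called 269 genes (1.84%), 124 more upward and 145 more downward under T3, and 253 of them were also called with time under T3, 2.46% of those calls. With total-count scaling the split was 138 upward and 74 downward. The count was 71 and 49 without T3 at 6 h library 1 or 2, 123 and 81 without vehicle at 6 h library 1 or 2, and 750 without library 1 labelled vehicle at 24 h. Of the 253, the difference from vehicle had the sign of the T3 change for 239 and the other sign for 14. The 239 include the 29 genes that moved in opposite directions under T3 and vehicle, whatever the size of each change. KLF9 is one of these. All 253 were chosen by their call under T3.

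**Figure D5:**
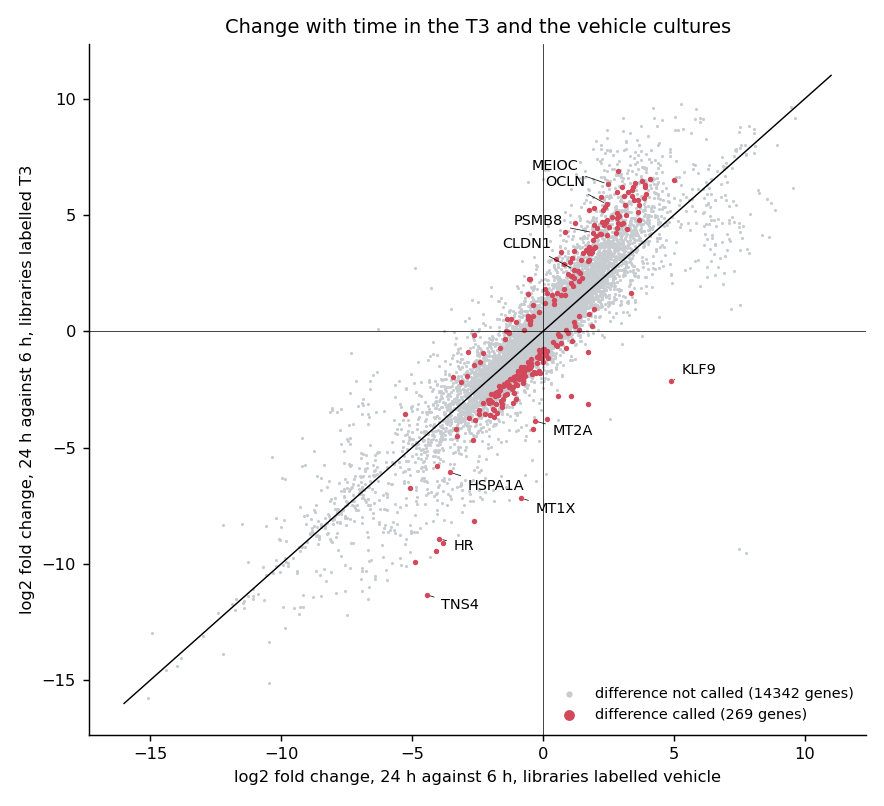
Log2 fold change from 6 h to 24 h in the libraries labelled vehicle (x axis) and labelled T3 (y axis) for the 14611 tested genes, with the line of equal change. The 269 red genes are those whose 2 changes differed. KLF9 is the labelled gene in the lower right, higher with time under the vehicle label and lower under the T3 label, and MT1X lies far under the line.

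The differences were led downward by KLF9, TNS4, MT1X, COL4A3 and ELMO3. KLF9's change under T3 lay under that with vehicle by a log2 difference of -7.03 (SE 0.57, adjusted p = 4.08e-06). TNS4, a focal adhesion gene, stood at 68.4 and 61.6 CPM with T3 at 6 h, 8.44 and 8.18 CPM with vehicle at 6 h, and at most 0.449 CPM in all libraries at 24 h. ELMO3, of the cell migration machinery, went from 15.9 and 19.3 CPM to no counts with T3 and from 28.6 and 18.8 CPM to 1.81 and 1.05 CPM with vehicle. Upward, the largest were PIEZO2, a mechanosensitive channel gene, then MEIOC, DPY19L2P2, CNRIP1 and CCDC8. MEIOC, a meiosis gene, went from 0.724 and 0.402 CPM to 45.4 and 42 CPM with T3 and from 6.63 and 5.73 CPM to 31.4 and 37.4 CPM with vehicle. CLDN1 lay 1.46 and OCLN 3.03 log2 units above their change with vehicle.

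Since KLF9 and HR go against the labels at 24 h, the same difference was computed with the 24 h labels exchanged, an alternative added after the data were seen. It then called 3181 genes in place of 269. MT1X, MT2A and HSPA1A kept their direction and their call in that setting, KLF9 did not pass the threshold (-0.88, adjusted p = 0.379) and HR turned to 3.42. Heat shock genes with a more downward change numbered 16 (with 2 upward) and stress response genes with a more upward change 15, while p53 targets went from 4 more upward to 1 upward and 8 downward. That count of 4 was 1 or 2 without vehicle at 6 h library 2, either T3 library at 6 h or library 2 labelled T3 at 24 h. The count of genes that changed with time moved less, to 9469 in place of 10281 with the libraries labelled vehicle at 24 h, of which 8527 had been called in the same direction.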

How the data were processed

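RNA of 8 libraries (4 groups of 2) was sequenced, and the authors deposited 1 table of raw read counts per gene for each library. CASAVA 1.7, STAR 2.7, HTSeq, DESeq2 and genome build hg38 are named, with no roles, per the submitters' processing notes. The sources used here name no annotation release or strand setting. The 5 summary rows were left out. The remaining 56832 gene rows were filtered by group with filterByExpr, scaled by TMM and fitted with edgeR 4.0.16 (R 4.3.3, robust quasi-likelihood F test) over all 8 libraries, with 1 coefficient per group and 4 residual degrees of freedom. Genes with Benjamini-Hochberg adjusted p under 0.05 were called. The script was tested on simulated data. The coefficient of biological variation was 13.1%.

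Change with time under T3 was tested against change under vehicle as an interaction contrast. CPM values are counts per 1000000 with TMM-scaled library sizes. A ratio is given with an exact Poisson 95% interval where the lower group had 1 to 3 counts, and intervals and floors cover counting error only. Coordinates are those of GENCODE 29. The 46 gene lists, with 870 entries, and the members were chosen with earlier results of these data known. The text names the 10 largest rises and falls with a mean of at least 10 CPM, the 5 smallest p-values, 2 members per direction and list, the 5 largest differences from vehicle per direction, and fixed genes. List members outside that rule (FN1, MDM2, CXCL8, IL6, TKT, FTH1, GAPDH, HSPH1, GDF15, TRIB3 and others) were chosen after their values were seen. XIST and Y-linked genes were not considered. Alternatives were other scaling, no filter, DESeq2 1.42.0, the 4 T3 libraries alone, a replicate block, a correction for GC content and length by lowess on annotated genes, and leaving out each library. The fits with the 24 h labels exchanged, or with the libraries labelled vehicle in place of those labelled T3, were chosen after seeing the data. Some named genes are not reported here.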

Additional observations from a re-analysis of the deposited data

Results flagged for a closer look

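The change from 6 h to 24 h differed between T3 and vehicle, as labelled, for 269 genes, and each value below is the log2 change under T3 minus that under vehicle for a gene followed in the text. Toward lower values under T3 it was -7.03 for KLF9, -6.89 for TNS4, -6.34 for MT1X, -5.51 for COL4A3, -5.36 for ELMO3, -4.96 for HR, -3.53 for MT2A and -2.51 for HSPA1A. TNS4, COL4A3 and ELMO3 had no counts in the libraries labelled T3 at 24 h, so their values depend on the prior count of the fit. HR had 3 counts over those libraries, and PIEZO2, listed next, had 1 count over the libraries of T3 at 6 h. Their values rest on few reads.

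Toward higher values under T3 it was 1.46 for CLDN1, 1.52 for VCAN, 1.63 for FHL1, 2.05 for HIST1H1D, 2.31 for PSMB8, 3.03 for OCLN, 3.43 for CCDC8, 3.47 for CNRIP1, 3.56 for DPY19L2P2, 3.86 for MEIOC and 4.05 for PIEZO2. Over the 15 alternatives run for these genes, MT1X kept its call in all 15, and HR, KLF9 and CLDN1 kept it in 14, losing it or turning with the 24 h labels exchanged. PSMB8 kept it in 8 and COL4A3, ELMO3 and PIEZO2 in 7. Without T3 at 6 h library 2 the calls of TNS4, COL4A3, ELMO3 and of every gene in the upward group except CLDN1 were lost. Without vehicle at 6 h library 2 the calls of TNS4, COL4A3, ELMO3, VCAN, FHL1, PSMB8, OCLN, CCDC8, CNRIP1 and PIEZO2 were lost. HSPA1A lost its call without library 2 labelled vehicle at 24 h (adjusted p = 0.0635), and MT2A after the GC and length correction. With 1 library of a group left out, the lone library is assumed to vary like the other groups.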

How the results depend on the processing

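The number of genes that differed between the 2 times of T3, 10281, ran from 9184 with DESeq2 to 10343 without a filter, was 9476 after the GC and length correction, and lay between 8418 and 10568 when each library was left out. The same direction was called for 73.54% (GC correction) to 99.84% (median-of-ratios size factors) of these genes. The count of at least 2-fold differences, 7180, lay between 6018 and 7522, and between 6498 and 7505 when each library was left out. The count whose change differed from vehicle, 269, was 674 without a filter and 49 to 750 when each library was left out. It was 3181 with the 24 h labels exchanged. Replicate numbers did not pair the samples (correlations of deviations from -0.056 to 0.121 over the 6 pairs of groups, -0.033 between the T3 groups and 0.121 between the vehicle groups), and with the replicate number as a block the counts were 10207 and 321.

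Of 169 called genes named by the rule, 149 kept call and direction in every setting. After the GC correction BBC3 turned to 0.57 and STARD4 to -0.52. With the libraries labelled vehicle at 24 h in place of those labelled T3, STARD4 was at -0.04 and KLF9 at 0.93. With the 24 h labels exchanged the difference from vehicle was 3.42 for HR, 6.54 for COL4A3, 0.97 for TNS4 and 6.22 for ELMO3. The cause was not tested. In the T3 libraries 3 counts corresponded to 0.347 to 1.09 CPM, so lower values rest on 1 or 2 reads.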
